A study of Mus musculus with 8 samples.

Results

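The promoters of long noncoding RNA (lncRNA) genes were examined in maps of accessible chromatin from mouse mammary gland epithelial cells. FAIRE-seq recovers DNA that is not tightly bound by nucleosomes, and the deposited data were 8 lists of FAIRE-positive regions (peaks), 1 for each library. EpH4 cells do not express active H-Ras, and EpRas cells are their H-Ras-transformed derivative; each line was left untreated or was treated with TGF-β3 at 1 ng/ml for 8 days, with 2 replicates in each of the 4 groups. EpH4 was cultured in 10% and EpRas in 4% fetal bovine serum, so a difference between the lines cannot be told apart from one of serum, and the EpRas libraries come from 1 transformed line. Peaks of the 8 libraries that shared at least 1 bp were merged into 37230 regions, and a merged region was counted as called in a library that had a peak in it. A region was taken as a lncRNA promoter region when its midpoint lay within 1 kb of an annotated start site of a lncRNA gene (types lincRNA, antisense and processed transcript in GENCODE) and more than 5 kb from every start site of a protein-coding gene. This rule gave 685 regions, and it used no score, line or treatment. All 685 enter the counts below, while scores were tested only for the 80 called in every library.

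A lncRNA is a transcript that is not translated, and many are spliced and made by the same RNA polymerase as messenger RNA. Some act in the nucleus on the genes around them, some are hosts that release small nucleolar RNAs or microRNAs from their introns, and for many annotated ones no function is known. Their promoters differ from those of most protein-coding genes in that few of them lie in CpG islands. TGF-β drives epithelial cells with active Ras into an epithelial-mesenchymal transition (EMT), and AP-1, a dimer of Jun and Fos proteins that acts downstream of Ras signaling, is a common factor at distal enhancers. FAIRE-seq reads open chromatin and not RNA, so an open start site does not show that the lncRNA was made.

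Many of these promoter regions were CpG-poor and carried an AP-1 motif, and a smaller class was CpG-rich. To show what such sequence looks like, 200 bases around the midpoint of 6 CpG-poor regions are given below on the strand of the lncRNA, with the AP-1 motif (TGAGTCA or its reverse complement TGACTCA) in capitals, from the GRCm38.p6 assembly. Gm12415 (chr4:84741371-84741570, plus strand) and AL805899.2 (chr4:89038976-89039175, minus strand) are the 2 regions whose peak score differed between the lines. 1700036A12Rik (chr9:60743303-60743502, plus strand), 5033421B08Rik (chr12:8511114-8511313, plus strand) and Junos (chr4:95098396-95098595, plus strand) were called in every EpRas library and no EpH4 library, and Gm36426 (chr13:70681915-70682114, minus strand) was called in every EpH4 library and no EpRas library.
Gm12415: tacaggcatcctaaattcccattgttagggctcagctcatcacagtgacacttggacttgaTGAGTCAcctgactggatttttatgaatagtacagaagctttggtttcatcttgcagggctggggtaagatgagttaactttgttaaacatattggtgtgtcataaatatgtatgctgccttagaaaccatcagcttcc
AL805899.2: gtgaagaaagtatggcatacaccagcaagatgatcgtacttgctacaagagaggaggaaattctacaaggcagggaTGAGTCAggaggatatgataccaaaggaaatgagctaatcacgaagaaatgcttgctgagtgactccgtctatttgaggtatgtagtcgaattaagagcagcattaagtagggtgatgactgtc
1700036A12Rik: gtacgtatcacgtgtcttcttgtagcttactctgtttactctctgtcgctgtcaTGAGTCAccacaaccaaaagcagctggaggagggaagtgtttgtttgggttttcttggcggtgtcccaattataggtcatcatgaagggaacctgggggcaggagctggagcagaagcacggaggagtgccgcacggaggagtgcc
5033421B08Rik: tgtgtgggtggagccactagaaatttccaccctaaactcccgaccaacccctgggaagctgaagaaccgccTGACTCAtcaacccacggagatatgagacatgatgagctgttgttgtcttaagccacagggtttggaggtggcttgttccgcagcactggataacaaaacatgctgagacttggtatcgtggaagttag
Junos: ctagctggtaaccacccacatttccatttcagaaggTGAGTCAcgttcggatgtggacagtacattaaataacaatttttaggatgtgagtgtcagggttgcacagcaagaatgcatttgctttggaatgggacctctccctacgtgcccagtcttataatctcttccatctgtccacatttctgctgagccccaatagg
Gm36426: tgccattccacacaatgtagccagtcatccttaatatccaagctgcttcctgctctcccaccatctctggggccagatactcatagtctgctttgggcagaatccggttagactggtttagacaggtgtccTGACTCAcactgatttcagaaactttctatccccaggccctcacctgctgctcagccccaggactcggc

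Each of the 6 windows holds the AP-1 heptamer 1 time, at 21 to 60 bp from the midpoint of the region. Only regions with the heptamer were eligible for this display, so its presence in all 6 was fixed in advance. It was in 228 of the 566 CpG-poor regions, and the other 1700036A12Rik region that separates the lines lacks it. The CpG-rich class is shown by the promoters of Snhg8 (chr3:123508371-123508570, minus strand) and Snhg5 (chr9:88523002-88523201, minus strand), hosts of small nucleolar RNAs that were called in all 8 libraries. Here the capitals mark GC boxes (GGGCGG or its reverse complement) and the CCAAT box (CCAAT or its reverse complement).
Snhg8: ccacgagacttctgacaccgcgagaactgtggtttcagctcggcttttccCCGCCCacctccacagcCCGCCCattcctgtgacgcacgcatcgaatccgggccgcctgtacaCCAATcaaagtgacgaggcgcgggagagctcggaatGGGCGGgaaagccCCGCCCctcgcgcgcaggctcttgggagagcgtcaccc
Snhg5: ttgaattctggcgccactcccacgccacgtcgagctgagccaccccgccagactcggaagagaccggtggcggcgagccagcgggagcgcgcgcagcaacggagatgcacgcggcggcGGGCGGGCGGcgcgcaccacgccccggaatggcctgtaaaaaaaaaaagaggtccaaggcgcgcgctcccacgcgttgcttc

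Snhg8 carries 4 GC boxes and 1 CCAAT box in these 200 bases, and Snhg5 carries 2 GC boxes that overlap. Neither window holds the AP-1 heptamer.

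The 8 lists held between 10821 and 27337 peaks, and the number of reads behind them is unknown because peak lists carry no counts. The second list of TGF-β-treated EpH4 was the shortest and the first list of TGF-β-treated EpRas the longest. Of the lncRNA promoter regions called in either replicate of a group, between 50.0% and 52.3% were called in both. Of 8 epithelial marker genes 7 had a peak at a start site in some library (from 0 to 6 genes per library), and Epcam had none. The second untreated and the second TGF-β-treated EpRas library had no peak at any of them. Cdh1, which encodes E-cadherin, had one in each of the 4 EpH4 and none of the 4 EpRas libraries. Krt8, Grhl2 and Esrp1 had peaks in EpH4 libraries only (3, 2 and 1), and Krt18, Krt7 and Cldn4 in both lines. Of 8 markers of other cell types, 6 had no peak in any library, among them Ptprc, Pecam1 and Myod1. The fibroblast markers did have peaks. Col1a1 had one in the first untreated and the first TGF-β-treated EpRas library, and Pdgfra in the first TGF-β-treated EpH4 library. No library had a peak at more than 1 of the 8.

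Few lncRNA genes with a start site away from coding start sites had a region there. Of 7421 lncRNA genes with a start site more than 5 kb from any coding start site, 623 (8.40%) had a merged region within 1 kb of such a site. Of 21951 protein-coding genes, 8714 (39.7%) had a region within 1 kb of a start site. No distance rule was set for coding start sites, so the sets were not chosen alike. LncRNA start sites close to coding ones are left out of this comparison. In each library the share of open lncRNA genes was several times lower, at 3.10% to 6.36% against 18.0% to 33.1% of coding genes. The 685 regions were nearest to 602 lncRNA genes: 525 genes had 1 region, 72 had 2 and 5 had more, up to 4 at D230017M19Rik. By gene type 446 regions (65.1%) belonged to lincRNA, 154 (22.5%) to antisense and 85 (12.4%) to processed transcript genes.

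The regions clustered just upstream of the start site. The midpoint was a median of 253 bp from the lncRNA start site (quartiles 83 and 541 bp), and 200 regions (29.2%) lay within 100 bp of it. Upstream midpoints numbered 432 and downstream ones 253. The median region was 287 bp wide, in a range of 200 to 5764 bp. The regions were far from coding genes, with a median distance of 39.8 kb to the nearest coding start site and 150 regions (21.9%) more than 100 kb away. The midpoint lay in an intron of some gene for 270 regions, between genes for 269, in an exon of a lncRNA or other noncoding transcript for 134, in coding exons for 6 and in UTRs for 6. Just inside the 1 kb limit were regions of C030037F17Rik (999 bp) and 5430403N17Rik (997 bp), and just outside it regions of C78859 (1004 bp) and 4833407H14Rik (1008 bp).

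**Figure D1:**
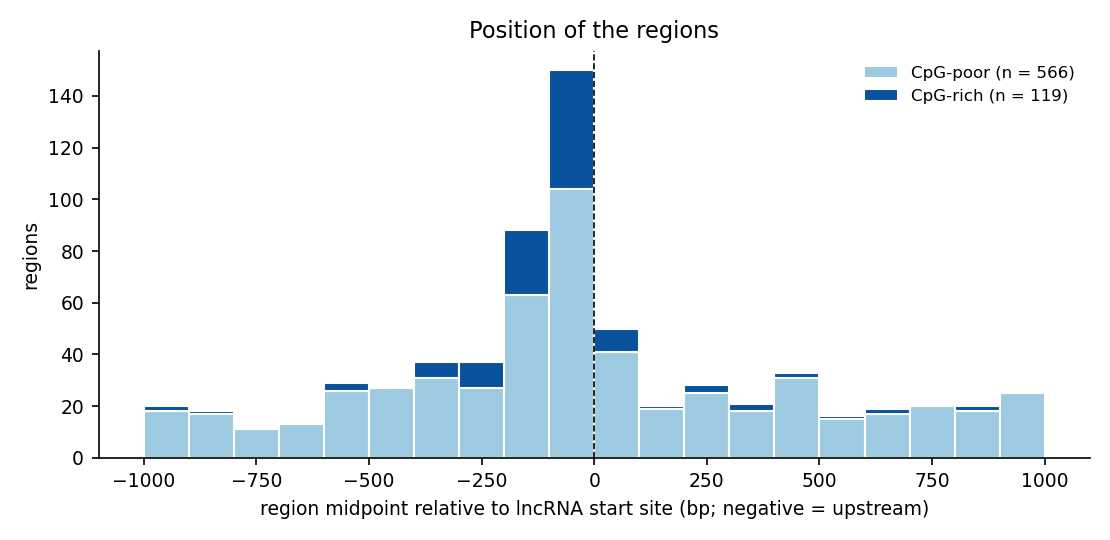
Number of lncRNA promoter regions (y axis) by the distance in bp of the region midpoint from the annotated start site (x axis, negative is upstream), in bins of 100 bp, with CpG-rich regions in dark blue stacked on CpG-poor regions in light blue. The highest bins are those just upstream of the start site, and the 119 CpG-rich regions lie closer to it (median 112 bp) than the 566 CpG-poor ones (median 309 bp).

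In base composition the lncRNA promoter regions stood between coding promoters and distal regions. For comparison, 8795 merged regions lay within 1 kb of a coding start site (coding promoters), and 23460 lay away from start sites of both kinds (other distal regions). Features were read in a 300 bp window around the midpoint, and for 6798 lncRNA genes with no region in a 300 bp window around the start site. The GC content was 51.4% ± 8.03 (SD over 685 regions) in the lncRNA promoter regions, against 60.7% in coding promoters, 46.1% in other distal regions and 47.6% at lncRNA start sites with no region. A window was called CpG-rich when its GC content was at least 50% and its observed to expected CpG ratio at least 0.6. By that rule 119 lncRNA promoter regions, 17.4% (95% Wilson interval 14.7% to 20.4%), were CpG-rich, compared with 73.4% of coding promoters, 1.73% of distal regions and 3.75% of lncRNA start sites with no region. Repeats took up 9.05% of the lncRNA windows and 27.5% of the windows at start sites with no region.

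The AP-1 heptamer was found in 241 of the 685 windows, 35.2% (31.7% to 38.8%). The share was 7.22% in coding promoters, 44.5% in other distal regions and 5.81% at lncRNA start sites with no region. Motifs common at CpG-island promoters went the other way. The GC box was in 23.6% of lncRNA windows and 65.7% of coding promoters, and the ETS motif (CCGGAAG, or the same word with A as its first letter, A as its last letter or both, on either strand) in 13.0% and 31.1%. The RUNX motif (TGTGGTT) was in 10.4% of lncRNA windows (8.30% to 12.9%), 4.20% of coding promoters and 14.0% of distal regions. The CCAAT box was in 35.8%, 45.4% and 33.8% of these sets. The cAMP response element (CRE, TGACGTCA) was rare in all of them, at 2.19%, 4.16% and 0.558%. Intervals cover counting error only, neighbouring regions are not independent, and a match is not a bound site. The windows of the 6798 start sites were centred on the start site and those of the regions on the midpoint, so these 2 kinds of window differ also in how they were placed.

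**Figure D2:**
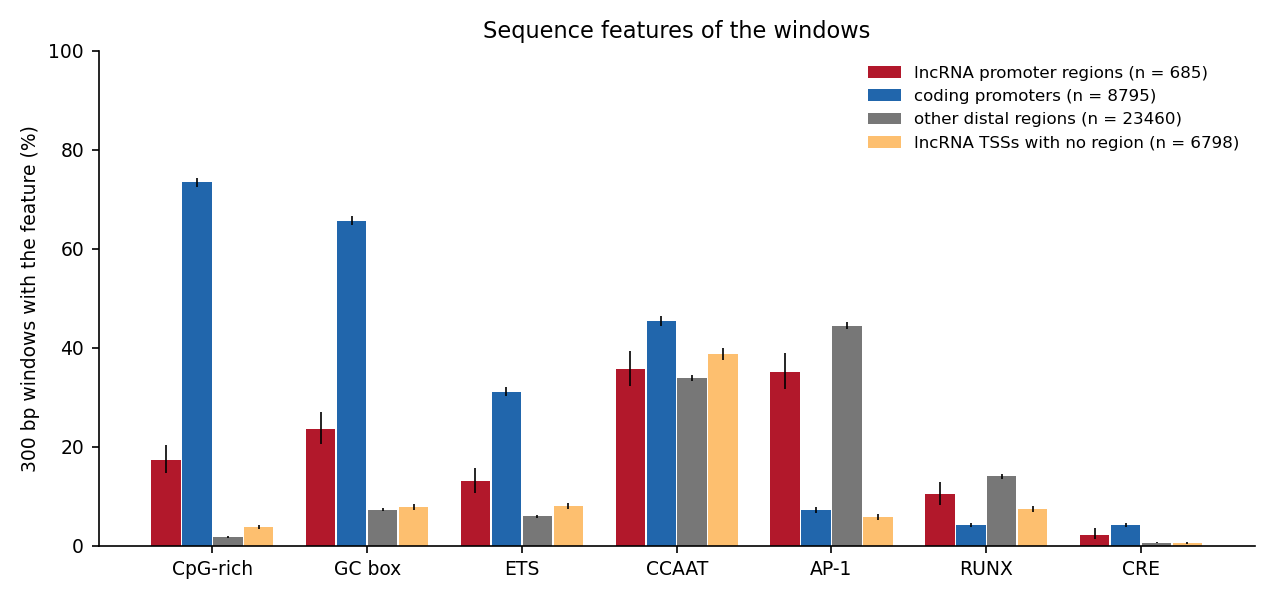
Share of 300 bp windows (y axis, percent) that are CpG-rich or hold a motif (x axis) in lncRNA promoter regions, coding promoters, other distal regions and lncRNA start sites with no region; error bars are 95% Wilson intervals. For AP-1 the lncRNA promoter regions (35.2%) stand near the distal regions (44.5%), and for CpG-rich sequence they (17.4%) stand between the coding promoters (73.4%) and the distal regions (1.73%).

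The CpG-rich class was called in all libraries more often than the CpG-poor class. Of the 119 CpG-rich regions 25, or 21.0% (14.7% to 29.2%), were called in all 8 libraries, compared with 55 of 566 CpG-poor regions, or 9.72% (7.54% to 12.4%). Coding promoters gave 23.4% and 13.7% for their CpG-rich and CpG-poor classes. The AP-1 heptamer was in 13 CpG-rich regions (10.9%) and in 228 CpG-poor regions (40.3%). Within the CpG-poor class, regions with the heptamer were called in all 8 libraries in 13.6% of cases (9.75% to 18.7%) and those without it in 7.10% (4.82% to 10.3%), and these intervals overlap. The lines, compared below, were separated by 1 of the 119 CpG-rich regions (0.840%) and 27 of the 566 CpG-poor regions (4.77%), a difference that was not tested. The processed transcript type had the largest CpG-rich share, 34.1% against 15.9% for lincRNA and 12.3% for antisense genes, and 18.8% of its regions were called in all 8 libraries, against 11.0% and 9.74%.

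Across all 685 regions, 80 were called in every library (11.7%), and the background over all merged regions was 11.4%. Only 1 library called 179 of them (26.1%, background 31.6%). Among the 80 constant regions, the 10 with the highest scores were ranked by percentile, the rank of a region's score among all peaks of the same library. The score is the authors' number for each peak, with no unit given in the sources used here. Gm26917 stood first at a mean percentile of 99.1, but its merged region (chr17:39843014-39848777) spans genes annotated as ribosomal RNA and repeated sequence, so its reads may come from many copies and its rank is uncertain. It was followed by 4930580E04Rik (95.5), AL805899.2 (95.4), A630001O12Rik (94.5) and Gm15722 (92.0). 4930447K03Rik, Gm17552, 1810032O08Rik, 4930471E19Rik and 2310043O21Rik lay between 90.1 and 91.9. 4930471E19Rik lies 159.9 kb from Hmga2, a chromatin protein gene linked to EMT.

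Among lncRNAs with a known role, hosts of small nucleolar RNAs were looked at first. Of 10 such genes that the rule could reach, 9 had a region, beside 623 of all 7421 reachable lncRNA genes (8.40%). The lists are short and the groups were not tested against each other. Snhg5, Snhg8, Snhg15 and Snhg17 were called in all 8 libraries. Dancr was called in 7, with no peak in the second replicate of TGF-β-treated EpH4. Snhg6 was called in all 4 EpRas libraries and in the first replicate of TGF-β-treated EpH4 alone. Snhg12 was called in 3 libraries, Snhg20 in the pair of treated EpRas libraries and Epb41l4aos in 1. Of 11 microRNA host genes, 2 had a region. Mir22hg, the host of miR-22, had 1 region called in all 8 libraries, in which the score percentiles were 72.2, 67.0, 59.6 and 60.6 in EpH4 (untreated, then TGF-β) and 96.9, 96.2, 91.8 and 78.3 in EpRas. All 4 EpRas percentiles were above all 4 EpH4 percentiles, but the normalized log2 score differed by 0.51 (SE 0.244, limma adjusted p = 0.278), which did not pass the test. A second Mir22hg region, further upstream, was called in 6 libraries, 3 of each line. Dleu2 was called in the first TGF-β-treated EpRas library alone.

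Other known lncRNAs were open in fewer libraries. In the X inactivation group Ftx was called in all 8 libraries, while the regions of Xist, the RNA that coats the inactive X, and of Firre were called in 1 each, and Tsix and Jpx had none. Malat1, an abundant RNA of nuclear speckles, had regions called in 4 and 7 libraries, and Neat1, the scaffold of paraspeckles, had none. Among lncRNAs tied to p53 or Myc, Lncpint was called in all 8 libraries, Trp53cor1 (lincRNA-p21, beside Cdkn1a) in 6, and Lockd, beside Cdkn1b, in 3 EpRas libraries only. Of 6 imprinted lncRNAs Airn had a region in 1 library, and H19, Meg3 and Kcnq1ot1 had none. Hotair and Haglr had none. Of 9 lncRNAs of EMT and differentiation, Bvht, which acts in the heart lineage, was called in 3 libraries. In all, 20 of the 50 reachable listed genes had 22 regions, and 7 of these were called in all 8 libraries. A gene with no region had none within these rules at this unknown depth, which does not show that its promoter was closed.

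The number of lncRNA promoter regions in a library followed the length of its list. Untreated EpH4 called 265 and 266 of them, TGF-β-treated EpH4 340 and 231, untreated EpRas 330 and 268, and TGF-β-treated EpRas 499 and 296. The groups overlapped, and the highest and the lowest values were those of the longest and the shortest list. As a share of all regions called in a library, lncRNA promoters made up 1.87% ± 0.086 in EpRas (SD, n = 4) and 2.06% ± 0.113 in EpH4 (n = 4). The libraries overlapped: EpH4 ran from 1.90% to 2.15% and EpRas from 1.77% to 1.95%. With every list shortened to its 10821 highest scores, the shares were 1.78% to 1.98% in EpRas and 1.98% to 2.15% in EpH4, which overlap slightly. With only peaks scoring above the median of all peaks (the stricter score), they were 1.88% to 1.94% in EpRas and 2.01% to 2.11% in EpH4, which do not overlap. TGF-β-treated libraries had 1.91% ± 0.166 and untreated ones 2.01% ± 0.095, which is within the spread. Within EpRas the 2 treated libraries had 1.77% and 1.83% and the 2 untreated ones 1.93% and 1.95%, without overlap. Within EpH4 the treated ones had 1.90% and 2.15% and the untreated ones 2.04% and 2.14%, which overlap. No p-value is given for these sums over the regions.

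**Figure D3:**
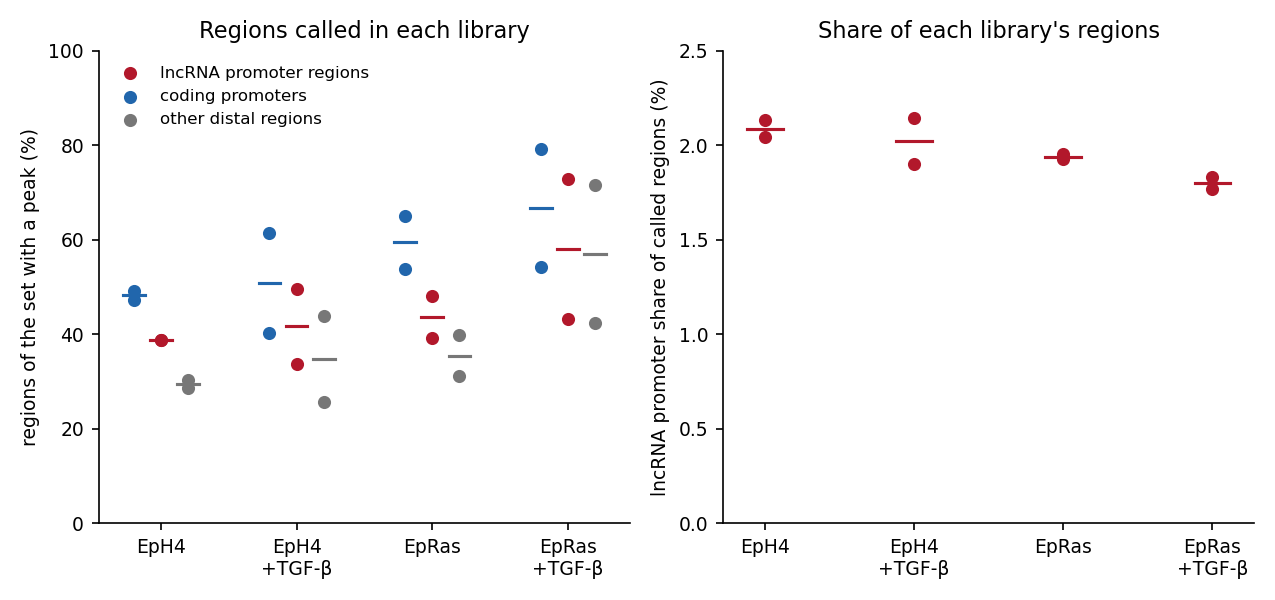
Left, share of each set of merged regions with a peak in a library (y axis, percent) in the 4 groups (x axis), for lncRNA promoter regions in red, coding promoters in blue and other distal regions in grey. Right, lncRNA promoter regions as a share of all regions called in a library (y axis, percent). Points are libraries and lines are group means of 2 libraries; on the left the lncRNA promoter regions lie between coding promoters and distal regions in all 8 libraries, and on the right the shares run from 1.77% to 2.15%.

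Of the 685 regions, 28 separated the lines completely. In all 4 EpRas libraries and in no EpH4 library 17 were called, or 2.48% (1.56% to 3.94%), beside a background of 1.98% over all merged regions. In all 4 EpH4 libraries and no EpRas library 11 were called, or 1.61% (0.899% to 2.85%), beside 0.752%. Other distal regions gave 2.25% and 0.904%, and coding promoters 1.30% and 0.330%. The EpRas share was close to the background. The split turned with lists of equal length but not with the stricter score. With 10821 peaks from each library 22 regions separated the lines, and 8 of those were the EpRas kind. With the stricter score 9 did, and 8 of those were the EpRas kind. Without untreated EpRas replicate 2 there were 45. Leaving a library out loosens the rule, so such a count can only stay or rise. Counts over all merged regions moved too, from 1016 to 665 with lists of equal length and to 435 with the stricter score. Without untreated EpRas replicate 2 they rose to 1721. How the 665 divided by direction is not given here, so the turn is not shown to be particular to lncRNA promoters.

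The EpRas-only regions with the highest scores lay together on chromosome 9. The lincRNA gene 1700036A12Rik had 2 such regions and Gm49334 had 1, within 217 kb between Thsd4 and Larp6. The region upstream of the 1700036A12Rik start site (chr9:60742600-60742900) had score percentiles of 90.5 and 97.6 in untreated and 81.0 and 87.0 in TGF-β-treated EpRas. The region downstream of it, whose AP-1 motif is printed above, had 93.8, 81.5, 99.0 and 57.1. Gm49334 (chr9:60527008-60527348) had 73.7, 83.8, 79.1 and 77.9. Of 33 merged regions within 300 kb of this group, 9 separated the lines in this direction (27.3%). Both counts include the 3 regions named above, which were chosen because they separate the lines. Over the other peaks chromosome 9 held a smaller share in EpRas (4.47% ± 0.225) than in EpH4 (5.51% ± 0.252, n = 4 each).

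Other EpRas-only regions included 3 on chromosome 4 and 1 on chromosome 12. 5033421B08Rik is an antisense gene 11.2 kb from Rhob, which encodes a small GTPase, and its region (chr12:8511030-8511397) had percentiles of 64.8 and 36.7 without and 83.2 and 84.0 with TGF-β. Chromosome 12 held 3.29% of other peaks in EpRas and 1.79% in EpH4, with no overlap between the lines, and the part of this shift in the result was not tested. Junos is the antisense gene at the Jun locus, and its region (chr4:95098310-95098681) lay 46.3 kb from the start site of Jun, a subunit of AP-1. Its percentiles were 28.3 and 13.8 in untreated and 67.8 and 77.6 in TGF-β-treated EpRas, in lists of different lengths. With lists of equal length, and with the stricter score, the excess of EpRas over EpH4 libraries fell from 4 to 2 for Junos. A second Junos region, 23.5 kb from Jun, was called in 1 library. 4930553M12Rik (chr4:88867441-88867676), beside Ifne in the interferon cluster, had 70.3, 70.5, 67.5 and 57.5. Gm11840, Spata5l1, Gm47509 and 8430426J06Rik had mean percentiles between 45.1 and 62.5. For Gm47509 and 8430426J06Rik the excess also fell from 4 to 2 libraries under both settings. With the stricter score alone it fell to 2 for Spata5l1 and to 3 for 5033421B08Rik and Gm11840. The 8430426J06Rik region lies beside a region of the same gene that was called in all 8 libraries. The other 7 regions of this kind, at Gm43020, Gm35037, Gm17173, Gm28181, Speer4cos, 1700030E10Rik and 4930473D10Rik, scored lower.

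The EpH4-only regions were spread over the genome. 4921509O07Rik (chr13:113502310-113502967, 116 kb from Snx18) had the highest scores, with percentiles of 79.5 and 74.6 in untreated and 64.6 and 61.8 in TGF-β-treated EpH4. Gm37218 had 59.1, 79.0, 85.8 and 43.4. Wbscr25, an antisense gene on chromosome 5, had 2 such regions, at chr5:135001316-135001636 and chr5:135002179-135002483. Chromosome 5 held 5.57% of other peaks in EpRas and 7.53% in EpH4, with no overlap. Gm14508 and Gm36426 carried the AP-1 heptamer, and Gm36426 ranged from percentile 5.35 in the second to 77.5 in the first TGF-β-treated library. Gm43349 lies 185 kb from Lef1, a factor of Wnt signaling, and 4833407H14Rik 68.0 kb from Dusp5, a phosphatase of ERK. Gm4651, Gm49595 and Gm35576 complete the 11. With the stricter score the count of EpRas minus EpH4 libraries went from -4 to -3 for 4921509O07Rik, Gm37218, Gm36426 and the first Wbscr25 region. It went to -2 for Gm14508 and to -1 for Gm4651, Gm43349, 4833407H14Rik and the second Wbscr25 region. For Gm49595 it went to 0. With lists of equal length it went to -3 for 4833407H14Rik, Gm49595 and the first Wbscr25 region.

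**Figure D4:**
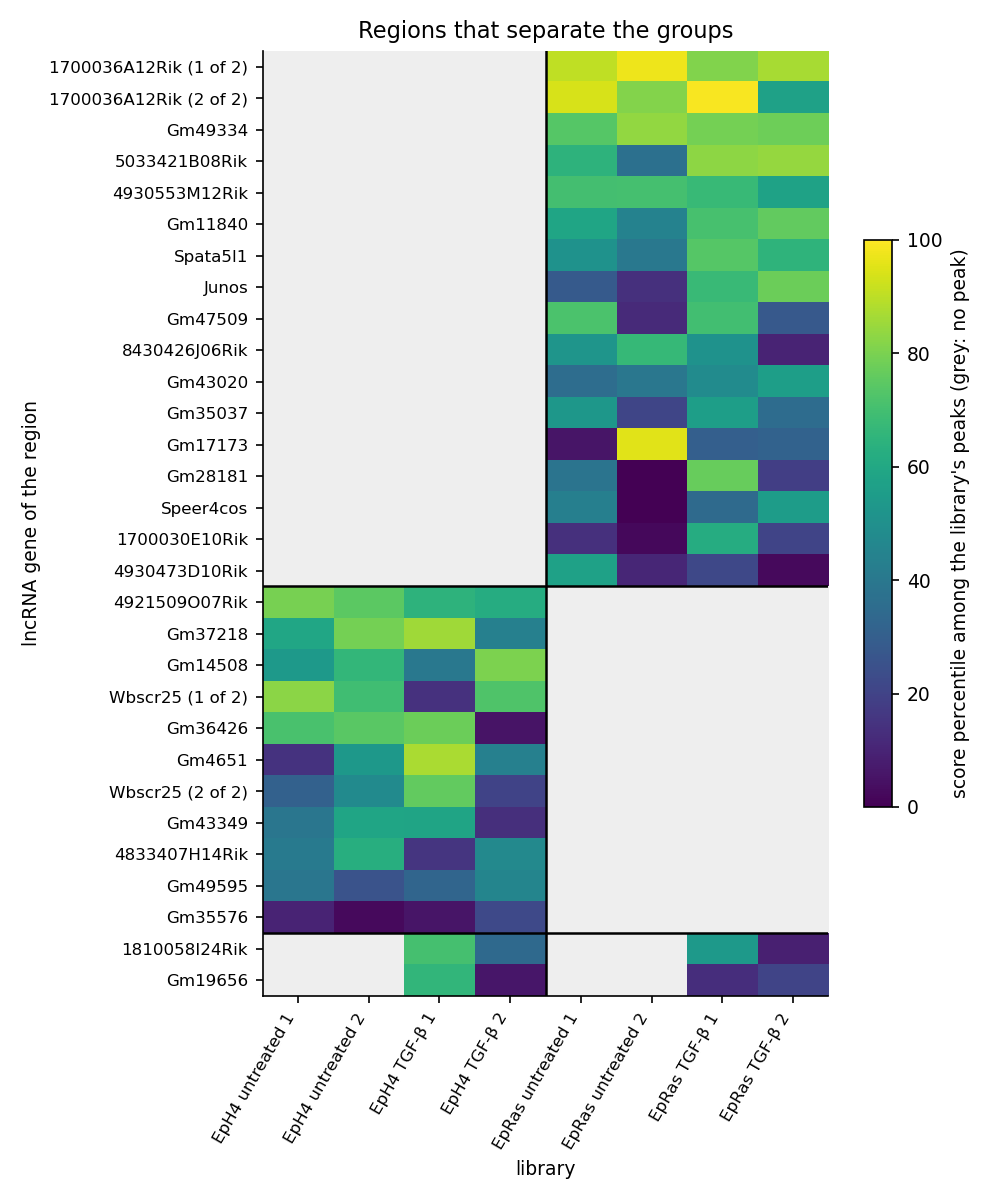
Score percentile (color) of the 30 lncRNA promoter regions (y axis) that separate the lines or the treatments, in the 8 libraries (x axis); grey marks no peak, and lines divide the 17 EpRas-only, 11 EpH4-only and 2 TGF-β-only regions. The regions of 1700036A12Rik reach the highest percentiles, 99.0 in the first TGF-β-treated EpRas library, and many others lie in the lower part of the range.

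The AP-1 heptamer was in 10 of the 17 EpRas-only regions, 58.8%, and in 3 of the 11 EpH4-only regions, 27.3%, and the Wilson intervals of these shares overlap. Among the lncRNA promoter regions called in a library, the heptamer was in 35.8% and 34.6% for untreated EpH4. For TGF-β-treated EpH4 it was in 35.6% and 35.9%. Untreated EpRas gave 36.7% and 37.7%, and TGF-β-treated EpRas 39.5% and 42.2%. All 4 EpRas libraries were above all 4 EpH4 libraries, with means of 39.0% ± 2.44 and 35.5% ± 0.619. The difference of 3.53 points stayed between 2.46 and 4.31 when each library was left out in turn. The lines overlapped with lists of equal length, with the stricter score and with the motif read in 500 bp or in the whole region. Distal regions were in the same direction, at 48.1% to 53.3% in EpRas and 47.4% to 49.6% in EpH4, which overlap. Coding promoters did not show it, at 6.10% to 7.19% in EpRas and 6.62% to 6.73% in EpH4. There, EpRas libraries lay both below and above the EpH4 range.

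The promoters of the coding genes nearest to the line-separating regions were also examined. For 18 of the 28 regions that promoter had no peak in any library, where 39.7% of all coding genes had a region in some library, and for 3 it had a peak in all 8. In the remaining 7 it was called in some libraries, in each case in more libraries of the line that had the lncRNA region. The margin could be small, as for Eef1e1, called in 4 EpRas and 3 EpH4 libraries. Both Wbscr25 regions share Abhd11 and both 1700036A12Rik regions share Larp6, so these genes were counted for each region. Coding genes near other regions were not compared in this way. Jun was called in 4 EpRas and 2 EpH4 libraries, Rhob in 3 and 1, and Dusp5, near an EpH4-only region, in 2 and 4. None of these coding promoters separated the lines completely, beside 1.30% and 0.330% of all coding promoter regions in the EpRas and EpH4 directions.

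TGF-β separated few lncRNA promoter regions across both lines. Called in all 4 treated and no untreated library were 2 regions (background 0.32%), and the reverse was found for 0 regions (background 0.0188%). 1810058I24Rik (chr6:35253089-35253377) had percentiles of 70.5 and 34.3 in treated EpH4 and 53.7 and 8.95 in treated EpRas, and carries an AP-1 heptamer. Gm19656 (chr7:98728514-98728958) had 65.7 and 6.21 in treated EpH4 and 13.1 and 20.5 in treated EpRas. Several of these peaks stood among the weakest of their library, and with lists of equal length neither region separated the treatments. Without untreated EpH4 replicate 1, which loosens the rule, there were 6 regions that did. Over all merged regions 126 separated the treatments, against 95 with lists of equal length and 222 without that library.

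Within EpRas, TGF-β gained more lncRNA promoter regions than it lost, but not with lists of equal length. Both treated libraries and neither untreated library called 43 regions, or 6.28% (4.69% to 8.35%) beside a background of 7.64%. Both untreated libraries and neither treated library called 10, or 1.46% beside 0.927%. With 10821 peaks in each library there were 16 gained and 17 lost. With the stricter score there were 42 gained and 3 lost. The lists still differed in length there, with 330 and 174 lncRNA promoter regions called in treated EpRas and 159 and 124 in untreated EpRas. Leaving a library out can only keep or raise these counts. Without treated replicate 1, whose list was the longest, there were 55 gained and 43 lost. Without treated replicate 2 there were 166 gained and 13 lost, and without untreated replicate 1 or 2 there were 87 gained and 19 lost or 71 and 41. Shares over all merged regions under these settings are not given here, so the shifts are not shown to be particular to lncRNA promoters. Of the 43 gained regions 26 had no peak in EpH4 either (3.80%, background 4.21%). Among these, B230216N24Rik, within the span of Pam, had the highest mean percentile, 70.2, with 62.8 and 77.6 in the treated libraries. Gm37170, 70.2 kb from Foxo1, had 72.4 and 58.7. 5430435K18Rik, Gm45830, A530053M12Rik, Gm38161, Gm10432, 2310020H05Rik, Gm15638 and 4930521E06Rik followed, with means of 35.7 to 64.4. A530053M12Rik had another region, called in all 8 libraries, next to this one. The AP-1 heptamer was in 17 of the 43 gained regions (39.5%, 26.4% to 54.4%) and 1 of the 10 lost ones (1.79% to 40.4%), beside 35.2% of all 685. The RUNX motif was in 9 gained regions (20.9%, 11.4% to 35.2%) and 0 lost ones (up to 27.8%), beside 10.4% of all 685. For both motifs the intervals of gained and lost regions overlap.

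Within EpH4, 26 regions were gained with TGF-β (3.80%, 2.60% to 5.50%, background 3.27%) and 19 were lost (2.77%, background 1.68%). These counts moved when a library was left out, which loosens the rule, so each can only stay or rise. Without untreated replicate 1 there were 51 gained and 55 lost, and without untreated replicate 2 there were 42 and 52. Without treated replicate 1 there were 46 and 45, and without treated replicate 2 there were 89 and 22. Losses outnumbered gains with either untreated library left out, where a loss no longer needed peaks in both untreated libraries. Here too, shares over all merged regions under these settings are not given. Of the gained regions 8 had no peak in EpRas (1.17%, background 0.86%). Gm35733 was the strongest of these, with percentiles of 69.1 and 80.1. Gm13686, an antisense gene 23.6 kb from Itgav, which encodes the αv integrin subunit, had 76.4 and 67.7. Gm12148, Gm34184, AC166654.1, Gm43660, AC119228.1 and Gm49539 had means of 9.08 to 54.1, and AC119228.1 lies in an intron of Cd274. The AP-1 heptamer was in 14 of the 26 gained regions (53.8%, 35.5% to 71.2%) and 6 of the 19 lost ones (31.6%, 15.4% to 54.0%).

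The scores of the 80 constant regions were compared with limma in a fit over all 4259 merged regions called in every library, on quantile-normalized log2 scores. Between the lines, 2 lncRNA promoter regions were higher in EpRas at an adjusted p under 0.05 (background 0.869%) and 0 were lower (background 0.798%). At an unadjusted p under 0.05, 14 of the 80 differed (17.5%), beside 16.7% of all regions. For TGF-β the limma fit called 0 of the 80, beside 0.047% of all regions higher and 0 regions lower, and 1 had an unadjusted p under 0.05, beside 6.50% of all regions. For the difference of the TGF-β effects between lines it called 0, as over all regions, with 5 at an unadjusted p under 0.05 (6.25%, beside 5.52%). The median log2 difference between the lines was 0.013 over the 80 regions and 0.00025 over all regions.

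Gm12415, a lincRNA gene 66.2 kb from Bnc2, showed the largest difference (chr4:84741242-84741698, midpoint 5 bp from the start site). Its normalized log2 scores were 3.83 and 4.36 in untreated EpH4, 4.55 and 4.78 in TGF-β-treated EpH4, 5.07 and 5.57 in untreated EpRas, and 5.74 and 5.50 in TGF-β-treated EpRas. Every EpRas value was above every EpH4 value, with a log2 difference of 1.09 (SE 0.234, limma adjusted p = 0.00687). AL805899.2 (chr4:89038804-89039346) had 4.45, 5.09, 5.32 and 4.96 in EpH4 and 5.81, 5.77, 6.50 and 5.65 in EpRas in the same order. The values did not overlap, and the log2 difference was 0.98 (SE 0.206, limma adjusted p = 0.00563). Both calls depend on single libraries and on the scale of the score. With rank percentiles in place of log2 scores the limma adjusted p was 0.335 for Gm12415 and 0.410 for AL805899.2. Without the first untreated EpH4 library the limma adjusted p was 0.0554 for Gm12415 and 0.0603 for AL805899.2. Without the second untreated EpRas library it was 0.0911 for Gm12415, and without the first TGF-β-treated EpRas library 0.0746 for AL805899.2.

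The difference at AL805899.2 was shared by its surroundings. Of 20 other tested regions within 300 kb of it, all 20 had higher scores in EpRas, 12 past an adjusted p of 0.05 by limma, with a median log2 difference of 0.87. These 12 are part of the 37 regions of the genome with higher scores in EpRas. Wincr1 and Gm12602, lncRNA genes in the same stretch toward Mtap and Cdkn2b, had log2 differences of 0.75 (SE 0.228) and 0.79 (SE 0.250), with limma adjusted p of 0.0760 and 0.0917, and are 2 of the 20. The EpRas-only region of 4930553M12Rik lies in this window too. Chromosome 4 as a whole held 6.94% ± 0.216 of other peaks in EpRas and 5.73% ± 0.450 in EpH4, without overlap, and the median log2 difference over its 251 tested regions was 0.17. Peak scores alone cannot tell more accessible chromatin from more copies of a stretch of DNA. No other region tested lay within 300 kb of Gm12415. 2310043O21Rik on chromosome 15 had a log2 difference of 0.75 (SE 0.228, limma adjusted p = 0.0770), and 2 of the 7 other regions tested around it had higher scores in EpRas.

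**Figure D5:**
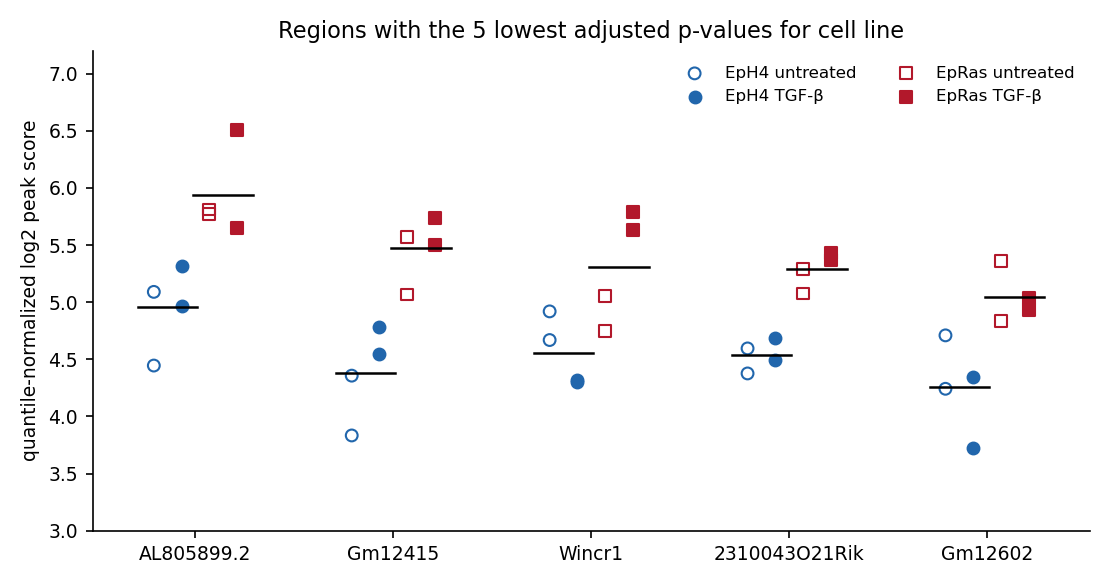
Quantile-normalized log2 peak score (y axis) in each library for the 5 lncRNA promoter regions with the lowest adjusted p for cell line (x axis); circles are EpH4 and squares EpRas, open symbols are untreated and filled ones TGF-β-treated, and lines are means of the 4 libraries of a line. AL805899.2 and Gm12415 passed the adjusted threshold, while Wincr1, 2310043O21Rik and Gm12602 did not, at limma adjusted p of 0.0760, 0.0770 and 0.0917.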

How the data were processed

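EpH4 and EpRas cells were compared without and with TGF-β by FAIRE-seq, with 2 biological replicates per group. The authors sequenced the DNA on an Ion Proton, trimmed reads to 36 bp, mapped them to mm10 with bowtie2 and called peaks in each library with MACS2 (version 2.0.9) at a q-value limit of 0.0001. In each list as deposited, column 5 holds a score per peak, from 5.08 to 779 over 129466 peaks; the authors give it no unit or normalization in the sources used here. The lists hold no read counts, so depth is unknown, and the intervals given are counting intervals over regions.

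Peaks were merged where they shared 1 bp or more, and start sites were taken from the GENCODE vM21 basic annotation. The members of the set, the gene lists and the tests were chosen with earlier results of these data known. In the text, named regions are those nearest a listed lncRNA, up to 10 per direction that separated the lines or treatments or were called with TGF-β in 1 line alone, those past the limma threshold, and the 10 strongest called in all libraries. The remaining line-separating regions, D230017M19Rik, the regions at the limits of the rule, Wincr1 and Gm12602 were named after their values were seen. The highest peak score per region and library was log2-transformed, quantile-normalized and fitted with limma 3.58.1 in R 4.3.3 (group means, eBayes with trend), over regions called in all 8 libraries, with Benjamini-Hochberg adjustment over all 4259. A region in which 1 library had several peaks took the highest. The fit was tested on simulated data. Same-numbered replicates did not deviate together (correlations of -0.014 to 0.030 over 6 pairs of groups), so the replicate number was not used as a block. Sequence was read from GRCm38.p6 (RefSeq), and shares carry 95% Wilson intervals.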

Additional observations from a re-analysis of the deposited data

Results flagged for a closer look

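Among groups of 4 libraries, 92 sets of values were examined for 1 value far from the rest, and chance alone gives about 1 in 20. In 5 cases the most extreme library stood apart. Untreated EpRas replicate 1 called 330 lncRNA promoter regions, against 265 to 268 in the other 3 untreated libraries. The normalized log2 score of Snhg5 was 3.44 in untreated EpH4 replicate 1, against 4.43 to 4.44 in the other untreated libraries. For 4930580E04Rik the score was 4.76 in untreated EpH4 replicate 1, against 5.20 to 5.25 in the other EpH4 libraries, and 4.84 in TGF-β-treated EpRas replicate 2, against 5.18 to 5.21 in the other treated libraries. For 4930447K03Rik it was 4.43 in untreated EpRas replicate 1, against 4.90 to 4.96 in the other EpRas libraries.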

How the results depend on the processing

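Scores have no unit and depth is unknown, so a region without a peak is not known to be closed, and 2 libraries per group leave each count resting on single libraries. With start sites within 500 bp, 1 region separated the treatments, 28 were gained and 6 lost with TGF-β in EpRas, and 14 were gained in EpH4. With lincRNA genes only, 17 regions separated the lines and 27 were gained in EpRas. With 10821 peaks per library, 0 separated the treatments, and 16 were gained and 17 lost in EpRas. With scores above the median of all peaks (15.51), 421 regions remained and the AP-1 share was 39.4%. Of these regions 9 separated the lines, 8 of them the EpRas kind, and 0 the treatments. In EpRas 42 were gained and 3 lost, and in EpH4 11 were gained and 8 lost. Leaving a library out loosens the rules for separated, gained and lost regions, so these counts can only stay or rise. Leaving out each library in turn gave 30 to 45 regions separating the lines (45 without untreated EpRas replicate 2) and 2 to 6 separating the treatments (6 without untreated EpH4 replicate 1), 43 to 166 gained in EpRas (166 without treated EpRas replicate 2) and 10 to 43 lost (43 without treated EpRas replicate 1), and 26 to 89 gained in EpH4 (89 without treated EpH4 replicate 2) and 19 to 55 lost (55 without untreated EpH4 replicate 1). On the lncRNA share, TGF-β effects differed between EpRas and EpH4 by -0.077 points with a range of -0.198 to 0.045 without each library, changing sign without treated EpH4 replicate 2. In limma, 0 regions passed between the lines on rank percentiles, 5 when regions called in at least 1 library of each group were fitted, and 0 to 4 without each library (4 without treated EpRas replicate 2); with the replicate block 2, 0 and 0 passed for line, TGF-β and their difference, as without it. On rank percentiles the limma adjusted p was 0.335 for Gm12415 and 0.410 for AL805899.2. Over all 4259 regions the block gave 45 higher and 47 lower in EpRas, against 37 and 34. The causes were not tested. The comprehensive GENCODE set, leaving out the region over 2 kb wide, and the AP-1 comparison of the lines were added after seeing the data.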
